A study of Mus musculus with 12 samples.

Results

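LiKM mice were compared with LiK mice while both strains received the acyclic retinoid ACR. The comparison uses 6 of the 12 liver libraries of the series, 3 LiKM (LiKM ACR 1, 2 and 3) and 3 LiK (LiK ACR 1, 2 and 3), chosen by their titles alone. All 12 libraries came from liver without tumour of male mice killed at 4 months of age, and the ACR groups had been given 0.06% ACR in their diet since the age of 5 weeks. The other 6 libraries, 3 of each strain on a normal diet, enter only to estimate the spread and where a value is set beside that on the normal diet. The labels do not define the strain names. Going by what is known of this study, both strains share a genetic change made in hepatocytes by a Cre recombinase under the albumin promoter, and LiKM mice in addition lack Mdm2 in hepatocytes. Both ACR groups therefore share that change and the diet, and differ in strain. The titles number the replicates, and each is taken here as a mouse of its own.

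Mdm2 is the ubiquitin ligase that marks p53 for degradation. When p53 accumulates it switches on genes that halt the cell cycle, such as Cdkn1a, and genes that drive cell death, and it switches on Mdm2 itself. Chronic injury of mouse liver is known for the spread of bile duct-like cells, fibrosis and the return of genes of the fetal liver. ACR (peretinoin) is a synthetic retinoid given against the recurrence of liver cancer, and retinoids act through nuclear receptors that pair with Rxra. Many liver genes also follow the time of day through the clock, in which Arntl with Clock or Npas2 drives Per, Cry, Nr1d1, Nr1d2, Ciart and Dbp, so that Arntl is high when Dbp and Nr1d1 are low.

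The 6 ACR libraries held 14312998 to 16167115 counts. Alb, the main secreted protein of hepatocytes, took 9.79 to 13% of them, and the hepatocyte genes Ttr, Apoa1 and Cps1 each reached at least 2255 CPM (counts scaled to library size) in every one of them, as in liver. Adipocyte and muscle markers were at or near 0, with Plin1 at 0 in all 6. Pancreatic genes stood apart in LiK ACR 3, where Prss2 reached 3.70 CPM against 0 to 0.0666 in the other 5. In a principal component analysis of these 6, the first axis (50.9% of the variance) placed the LiK libraries between -43.9 and -31.2 and the LiKM libraries between 27.6 and 46.6. The second, with 19.2%, set LiKM ACR 3 at -40.0 against 29.8 and 20.5 for LiKM ACR 1 and 2. LiKM ACR 3 also carries the only identifier among the 6 that begins with MP in place of KM, and the labels do not say what these letters mark. No source used here gives the hour at which the mice were killed.

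Of 13880 genes tested, 1359 passed an adjusted p of 0.05 between the strains on ACR, 771 higher and 588 lower in LiKM (quasi-likelihood test of edgeR, Benjamini-Hochberg adjusted, as for every adjusted p here). That is 9.79% of the genes tested, 5.55% higher and 4.24% lower. Rises were larger than falls. At least 2-fold differences were seen for 538 of the higher genes and 113 of the lower, at least 4-fold ones for 202 and 19, and the median log2 fold change was 1.30 among the higher genes and -0.63 among the lower. The lower genes were the more abundant, with a median of 55.9 CPM in LiK, while the higher genes had a median of 6.78 CPM in LiKM. In 1347 of the 1359 the 3 LiKM libraries did not overlap the 3 LiK libraries, which was so for 33.3% of all genes tested, so leaving out 1 library cannot turn the direction of these genes. With libraries scaled by total counts alone the median of all genes moved from 0.02 to 0.14, and 877 of 1126 calls were higher in LiKM.

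**Figure D1:**
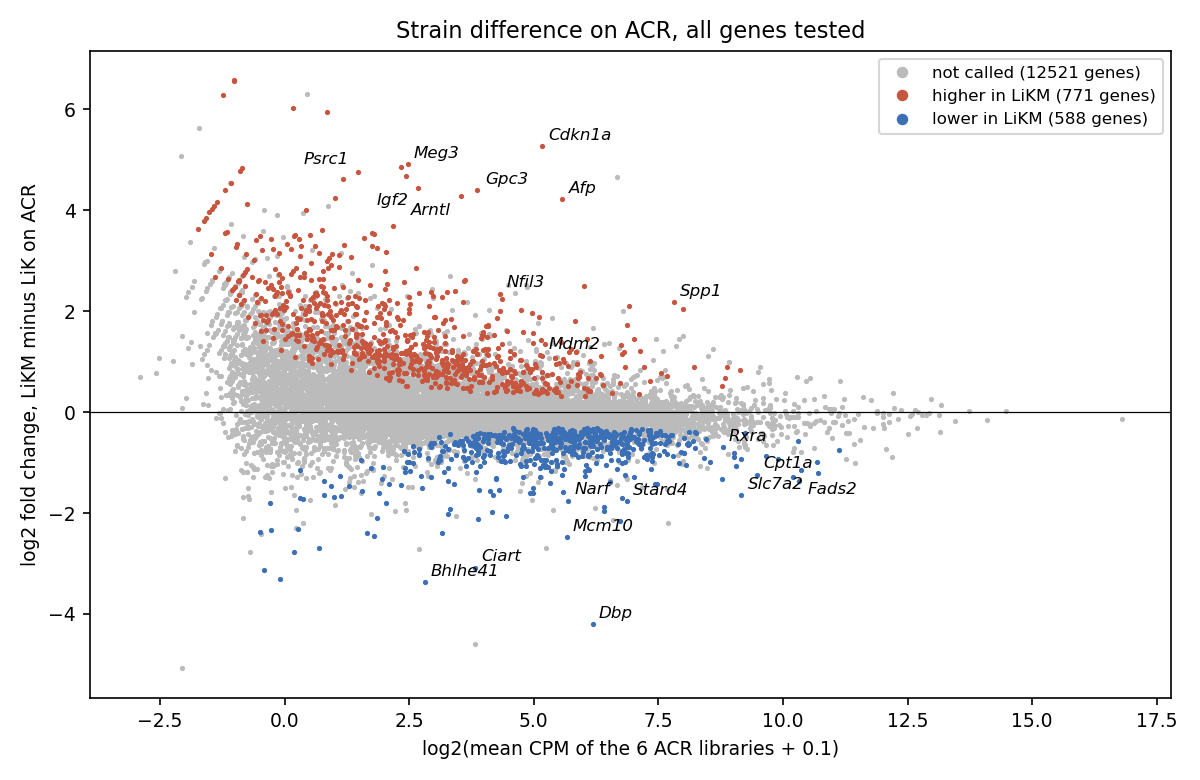
Strain difference on ACR for the 13880 genes tested, as log2 fold change (LiKM minus LiK, vertical axis) against log2 of the mean CPM of the 6 ACR libraries plus 0.1 (horizontal axis). Each point is a gene, red where higher in LiKM (771), blue where lower (588) and grey where not called; the red points lie further from 0 and further to the left than the blue ones.

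These calls rest on few mice. Without LiK ACR 2 the count fell from 1359 to 312, without LiK ACR 1 to 565, without LiK ACR 3 to 761 and without LiKM ACR 2 to 743, whereas it was 1089 without LiKM ACR 1 and 1022 without LiKM ACR 3. The excess of higher over lower calls was not stable. Without LiKM ACR 3, 466 were higher and 556 lower, and without LiK ACR 2, 145 and 167. With the identifier prefix as covariate 457 were higher and 503 lower. With any other ACR library left out more were higher than lower. With any 1 ACR library left out all 1359 genes kept their sign. Their median absolute log2 fold change was then 0.92 to 1.00, against 0.96, and their median SE 0.22 to 0.24, against 0.21. The 6 ACR libraries fitted alone gave 1090 calls, of which 897 were among the 1359. The replicates within LiKM differed more from each other than those within LiK, with a median SD of 0.24 against 0.16 on the log2 CPM scale over all genes tested.

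Clock genes differed between the groups and within LiKM. Of 23 core clock genes, 8 passed the test, Arntl, Npas2, Nfil3 and Csnk1e higher in LiKM and Dbp, Bhlhe41, Ciart and Nr1d2 lower, and 3 of them (Dbp, Bhlhe41 and Ciart) had the largest falls of all genes that the naming rule admits. Dbp, a transcription factor that carries the rhythm to output genes, stood at 139, 137 and 136 CPM in the LiK libraries and at 15.4, 3.25 and 3.54 in LiKM (log2 -4.21, SE 0.80, adjusted p 0.0141). The LiK values were nearly equal, and LiKM ACR 1 lay above LiKM ACR 2 and 3. Arntl, the activator at the head of the loop, was at 0.721, 1.73 and 0.892 CPM in LiK and 5.66, 30.3 and 29.6 in LiKM (log2 4.27, SE 0.62, adjusted p 0.00506). Npas2, which can take the place of Clock beside Arntl, was at 0.0721, 0.533 and 0.343 CPM in LiK and 0.0622, 10.4 and 18.2 in LiKM (log2 4.86, SE 1.33, adjusted p 0.045). Its call came from LiKM ACR 2 and 3, because LiKM ACR 1 was no higher than the LiK mice.

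Among the repressors, Nfil3, which competes with Dbp for its sites, was at 6.63, 5.93 and 7 CPM in LiK and 30.1, 41.2 and 28.2 in LiKM (log2 2.35, SE 0.30, adjusted p 0.00302). Bhlhe41, which represses at E-boxes, was at 15.1, 13.8 and 8.99 CPM in LiK and 1.99, 0.475 and 1.16 in LiKM (log2 -3.36, SE 0.44, adjusted p 0.00298). Nr1d2, a nuclear receptor that represses Arntl, was at 149, 129.6 and 122 CPM in LiK and 53.2, 23.7 and 31.5 in LiKM (log2 -1.88, SE 0.32, adjusted p 0.00881). In these 3 genes and in Dbp, Arntl and Ciart the groups did not overlap.

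The period genes separated the LiKM mice from each other. Per1 stood at 68, 56.3 and 77.8 CPM in LiK and 49.4, 50.9 and 3.11 in LiKM, and Per2 at 60.6, 63.5 and 58.9 in LiK and 128, 97.7 and 8.54 in LiKM. LiKM ACR 3 was lowest of all 6 in both, and neither gene passed the test (adjusted p 0.438 and 0.796). Cry1, a repressor that peaks late in the cycle, was at 28.1, 80.4 and 14.2 CPM in LiKM against 6.13, 6.46 and 11.1 in LiK (adjusted p 0.062), highest in LiKM ACR 2. Every one of the 23 clock genes had a larger SD in LiKM than in LiK on ACR, which was so for 66.5% of all genes tested. The median SD of the 23 on the log2 CPM scale was 1.24 in the LiKM mice and 0.20 in the LiK mice of the ACR groups. Their counterparts on the normal diet had 0.61 and 0.18.

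**Figure D2:**
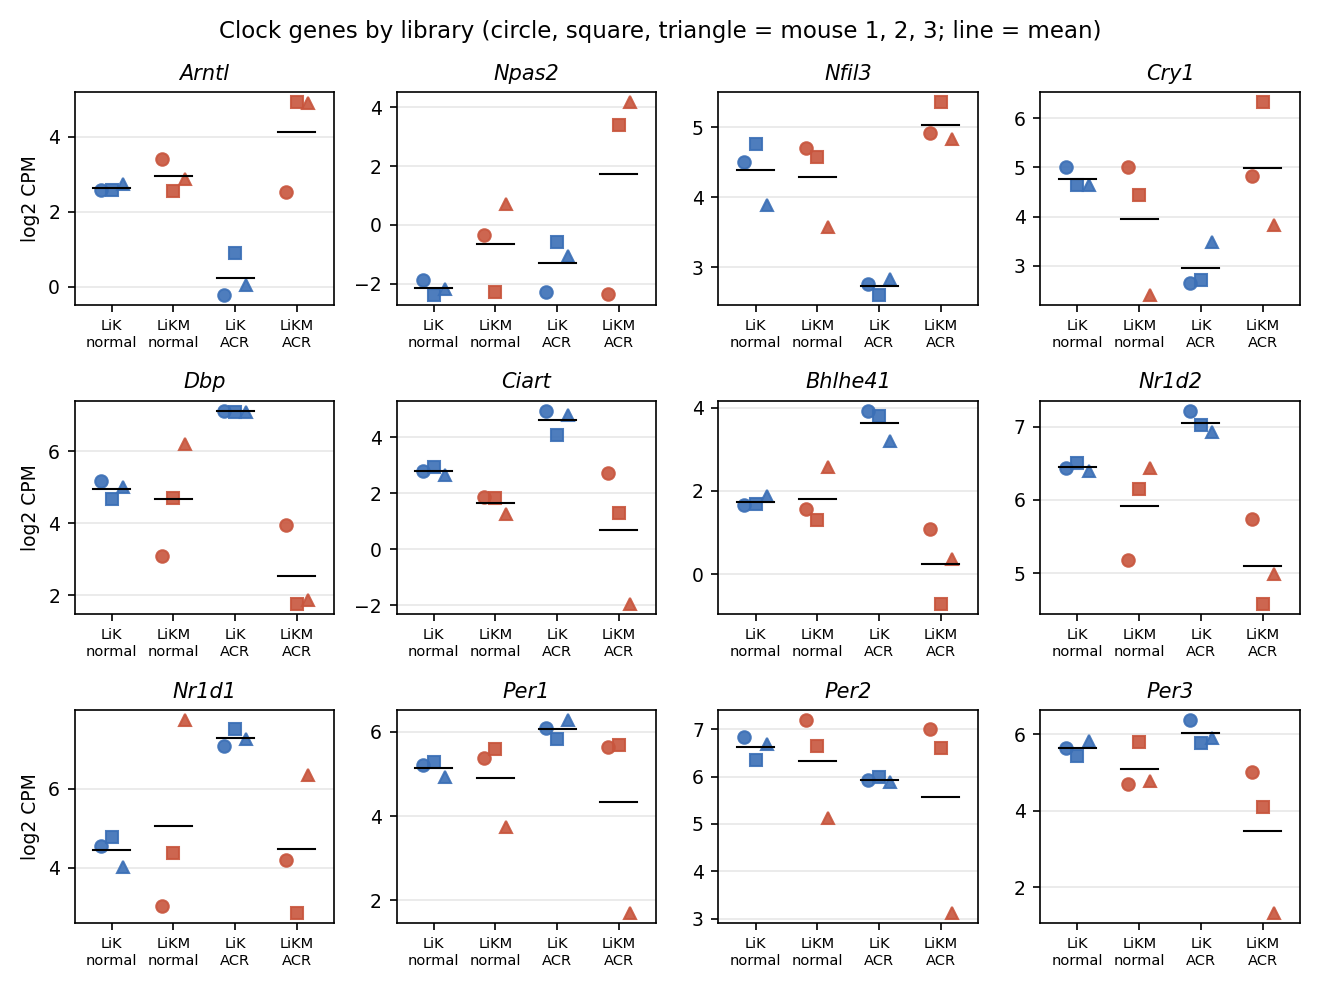
Log2 CPM of 12 core clock genes (vertical axes) in the 4 groups (horizontal axes, 3 mice each; circle, square and triangle are mice 1, 2 and 3, lines are means). The 3 LiK mice on ACR sit close together with high Dbp and low Arntl, the LiKM mice on ACR have low Dbp, and LiKM ACR 3 (triangle) is lowest in Per1, Per2 and Per3.

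The promoters of Ciart, Bhlhe41 and Per3 are shown because they hold the letters that the clock's activators and output factors are known to bind. The E-box CACGTG is the site of Arntl with its partners and of Bhlhe41, and the D-box TTATGTAA that of Dbp and Nfil3. RefSeq promoters (GRCm38.p6) were found for 18 of the 23 clock genes, and both strands of the 250 bases before the gene start were searched. An E-box was present for 5 genes (Per1, Cry1, Tef, Bhlhe41 and Ciart) and a D-box for 1 (Per3). Of the 26994 genes with a promoter in the table, 6.86% had an E-box in at least 1 of their promoters and 0.974% a D-box. The sequences below run up to the gene start or to the first annotated exon base, with E-boxes or D-boxes in capitals.
Ciart (chr3:95882252-95882478, minus strand): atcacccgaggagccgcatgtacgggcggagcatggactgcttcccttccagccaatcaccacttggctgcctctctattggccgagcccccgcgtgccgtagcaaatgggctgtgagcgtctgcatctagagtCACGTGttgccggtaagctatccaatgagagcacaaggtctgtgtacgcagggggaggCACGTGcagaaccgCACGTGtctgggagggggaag
Bhlhe41 (chr6:145865559-145865670, minus strand): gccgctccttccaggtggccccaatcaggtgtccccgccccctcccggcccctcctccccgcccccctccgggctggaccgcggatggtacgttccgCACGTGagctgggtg
Per3 (chr4:151044666-151044915, minus strand): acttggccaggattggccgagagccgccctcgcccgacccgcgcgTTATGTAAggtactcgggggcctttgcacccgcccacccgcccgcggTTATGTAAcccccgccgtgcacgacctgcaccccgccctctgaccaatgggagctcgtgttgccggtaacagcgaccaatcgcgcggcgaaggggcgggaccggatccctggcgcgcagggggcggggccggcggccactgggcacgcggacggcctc
Ciart has 3 E-boxes, beginning 116, 58 and 44 bases before its start, and Bhlhe41 has 1, beginning 153 bases before. Ciart, a repressor of Arntl and Clock, was at 30.6, 16.6 and 27.7 CPM in LiK and 6.41, 2.31 and 0.122 in LiKM (log2 -3.08, SE 0.68, adjusted p 0.0219). Per3, with 2 D-boxes beginning 205 and 158 bases before its start, was at 82.9, 54.8 and 59.9 CPM in LiK and 32, 17.1 and 2.38 in LiKM (adjusted p 0.0875). A match is a description of the sequence, and neither binding nor rhythm was measured.

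On the normal diet 1 of the 23 clock genes passed the test (Csnk1e, log2 0.94, adjusted p 0.00164). There the strain difference was 0.21 for Dbp, 0.36 for Arntl and -0.06 for Nfil3 on the log2 scale. The difference of the strain effect between the diets did not pass for these genes (adjusted p 0.2, 0.139 and 0.0865). The first 2 principal components of the clock genes over the 12 libraries held 61.0% and 29.3% of their variance. On the first, the LiK mice on ACR lay at -5.90, -4.23 and -4.75 and the LiKM mice on ACR at 0.01, 6.45 and 9.12, while the 6 libraries on the normal diet lay between -0.98 and 2.30. On the second, LiKM ACR 3 lay at -5.24 and LiKM ACR 1 and 2 at 2.69 and 2.77. The third LiKM mouse on the normal diet lay near LiKM ACR 3 on that axis, at -4.51, the LiK mice on ACR lay between -2.69 and -1.74, and the other 5 normal diet libraries between 1.90 and 2.64.

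With both components as covariates 5 genes passed between the strains on ACR, against 1359 without them, while 3005 passed on the normal diet against 3031. Of the 1359 genes 1304 kept their sign. Their median absolute log2 fold change went from 0.96 to 0.70 and their median SE from 0.21 to 0.43. The components move with the strain on ACR, so clock phase and strain cannot be told apart in these 6 mice. Every strain difference on ACR below is one between mice that also differ in these genes.

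**Figure D3:**
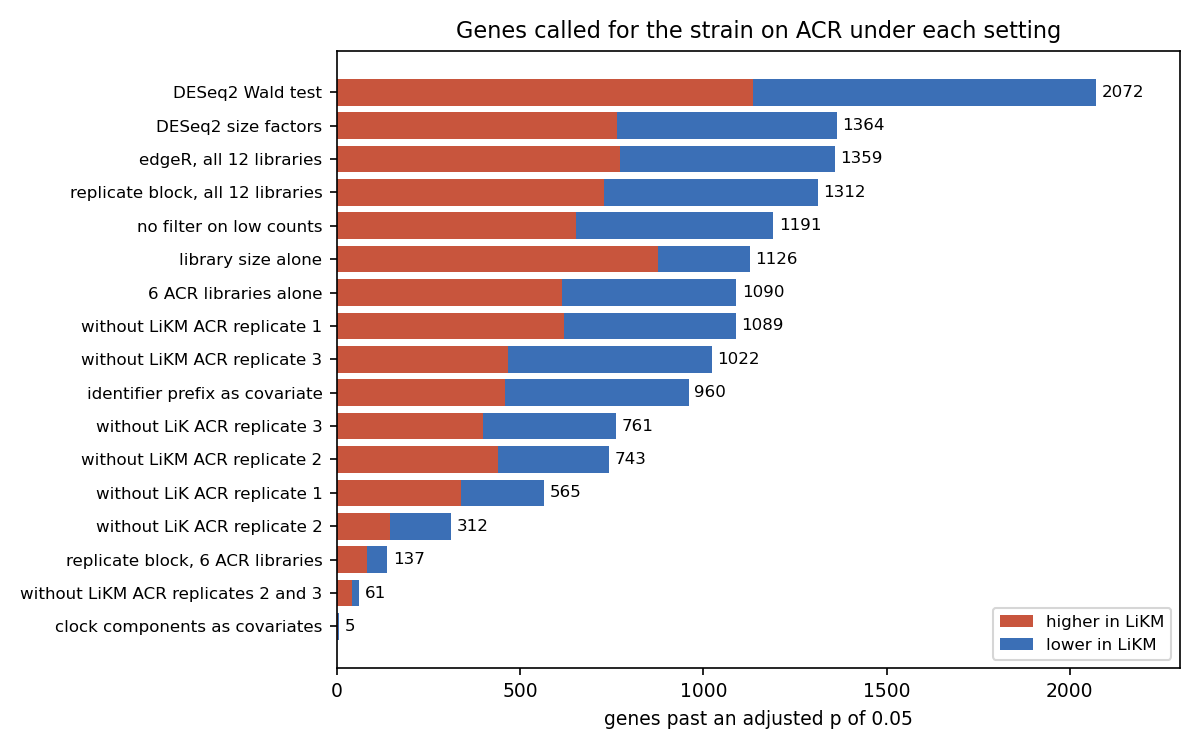
Number of genes past an adjusted p of 0.05 between the strains on ACR (horizontal axis) under each setting (vertical axis), red higher and blue lower in LiKM. The count is 1359 with all 12 libraries in edgeR, 2072 with DESeq2, 312 without LiK ACR 2 and 5 with the clock components as covariates.

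The p53 pathway was examined first among the gene groups because the strains are meant to differ in Mdm2. Mdm2 itself stood at 21.6, 22.4 and 23.5 CPM in LiK and 31.8, 47.6 and 67.2 in LiKM on ACR and rose (log2 1.12, SE 0.21, adjusted p 0.0101), with no overlap. The counts cover the whole gene and all cells of the tissue, so they do not check the loss of part of the gene in hepatocytes. Trp53, which encodes p53, was at 14.2, 18.4 and 18.1 CPM in LiK and 23.2, 22.4 and 26.8 in LiKM and did not pass (log2 0.51, adjusted p 0.077).

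Of 40 p53 targets 18 rose and 0 fell, with a median log2 fold change of 0.90 over the 40 against 0.02 over all genes tested. Cdkn1a, the inhibitor of cyclin-dependent kinases p21 (chr17:29090976-29100727), showed the largest rise of the genes that the naming rule admits. It stood at 1.73, 1.66 and 1.99 CPM in LiK and 40.8, 113 and 54.3 in LiKM (log2 5.27, SE 0.75, adjusted p 0.00533), with LiKM ACR 2 highest. Psrc1, a microtubule protein, was at 0.216, 0.133 and 0.206 CPM in LiK and 4.23, 4.47 and 6.77 in LiKM (log2 4.75, SE 0.54, adjusted p 0.00208). Phlda3, which restrains Akt, was at 0.721, 0.533 and 0.755 CPM in LiK and 5.1, 5.49 and 8.54 in LiKM (log2 3.24, SE 0.43, adjusted p 0.00302). Both had similar values within each group. Their LiK values rest on few counts, 3, 2 and 3 for Psrc1 and 10, 8 and 11 for Phlda3. Ddit4l, an inhibitor of mTOR signalling, was at 1.23, 0.2 and 0.48 CPM in LiK and 3.36, 9.83 and 11.4 in LiKM (log2 3.69, SE 0.58, adjusted p 0.00606). The death gene Bax, chosen after its values were seen, rose by 0.72 (adjusted p 0.0268). LiKM ACR 1 was lowest of the 3 LiKM mice in 16 of the 18 genes and LiKM ACR 3 highest in 12. With 1 ACR library left out in turn the 18 became 9 to 18 (lowest without LiK ACR 2), without LiKM ACR 2 and 3 together 1, and with the clock components 0. The median over the 40 was 0.50 with LiKM ACR 1 as the only LiKM mouse on ACR and 0.26 with the clock components, where Cdkn1a stood at 1.87. On the normal diet Cdkn1a differed by 2.93 and Mdm2 by 0.37 on the log2 scale, and the difference between the diets did not pass (adjusted p 0.396 and 0.364).

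Genes that hold back or mark cycling cells were higher in part, where 5.55% of all genes tested rose. Of 22 genes of senescence and the CDK inhibitors 5 rose and 0 fell, among them Cdkn2b, the inhibitor p15, at 0.505, 0.466 and 0.274 CPM in LiK and 1.99, 0.746 and 3.11 in LiKM (log2 2.22, adjusted p 0.0294). Of 34 cell cycle genes 4 rose and 0 fell, though the replication factor Mcm10, which is outside that list, fell (log2 -2.48). Rrm2, a subunit of the enzyme that makes deoxynucleotides, was at 4.33, 3.53 and 6.93 CPM in LiK and 18.9, 16.9 and 11.9 in LiKM (log2 1.69, adjusted p 0.0423). Bub1b, of the spindle checkpoint, was at 0.793, 0.599 and 0.892 CPM in LiK and 1.99, 1.69 and 4.09 in LiKM (log2 1.76, adjusted p 0.0193). With 1 ACR library left out the 5 higher senescence genes became 0 to 4 (0 without LiKM ACR 3) and the 4 cell cycle genes 0 to 7 (0 without LiK ACR 1). The ACR libraries alone gave 4 and 8, and DESeq2 gave 7 and 9. With the clock components the medians went from 0.78 to 0.48 for senescence and from 0.92 to 0.34 for the cell cycle.

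Part of the genes of fetal liver rose in LiKM on ACR, and Meg3, Mir675, Igf2, Gpc3, Afp and Igdcc4 are 6 of the 10 largest rises. Of 23 markers of liver tumours and fetal liver 8 rose and 0 fell, with a median of 1.40. The summed level of the 25 listed genes overlapped, at 871 to 1096 CPM in LiK and 916 to 2380 in LiKM (medians 1037 and 983). Afp, the fetal counterpart of albumin (chr5:90490737-90508907), stood at 7.5, 3.46 and 3.57 CPM in LiK and 180.2, 17.9 and 71.6 in LiKM (log2 4.22, SE 0.90, adjusted p 0.0212). Gpc3, a cell surface proteoglycan of fetal liver and hepatocellular carcinoma, was at 2.31, 0.599 and 1.03 CPM in LiK and 43.3, 6.78 and 32.5 in LiKM (log2 4.40, SE 0.73, adjusted p 0.00821). Igf2, the fetal growth factor (chr7:142650766-142666816), was at 0.649, 0.599 and 0.412 CPM in LiK and 27.5, 1.63 and 7.07 in LiKM (log2 4.43, SE 0.91, adjusted p 0.0166). In all 3 LiKM ACR 1 was highest and LiKM ACR 2 lowest, and the groups did not overlap. Over the 8 genes LiKM ACR 1 was highest in 6 and LiKM ACR 2 lowest in 7. Leaving out 1 ACR library made the 8 become 3 to 9, lowest without LiK ACR 2. Igf2 was 1 of the 5 genes past the threshold with the clock components as covariates. Its log2 fold change there was 8.95 against 4.43 without them, so the size of its difference depends strongly on these covariates. Igdcc4, a surface receptor of the immunoglobulin family, was at 1.3, 0.0666 and 0.206 CPM in LiK and 10.8, 1.76 and 5.55 in LiKM (log2 3.54, adjusted p 0.031).

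Mir675, whose hairpin lies within H19, was at 1.08, 0.0666 and 0.0686 CPM in LiK and 24.5, 4 and 2.32 in LiKM (log2 4.67, adjusted p 0.0379). Its counts cannot be told from those of H19, which was at 19, 2 and 2.47 in LiK and 469, 81.9 and 36.4 in LiKM and did not pass (log2 4.66, adjusted p 0.0673). Meg3, a maternally expressed long RNA, was at 0.216, 0.666 and 0.137 CPM in LiK and 13.7, 6.51 and 11.3 in LiKM (log2 4.90, adjusted p 0.00509), and its counts are uncertain because most are not whole. Its neighbour Rian, chosen after its values were seen, was at 0.577, 0.4 and 0.48 CPM in LiK and 6.84, 2.58 and 6.65 in LiKM (log2 3.45, adjusted p 0.0104). Dlk1, a Notch-like surface protein of fetal liver in the same imprinted region, had 0 counts in LiK and 13, 4 and 21 in LiKM. Against a floor of 3 counts over the LiK group it was at least 11.7-fold higher (edgeR adjusted p 0.0126). Slc38a4, an imprinted amino acid carrier also chosen after its values were seen, fell from 1768, 1654 and 1584 CPM in LiK to 635, 748 and 661 in LiKM (log2 -1.29, adjusted p 0.0034).

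**Figure D4:**
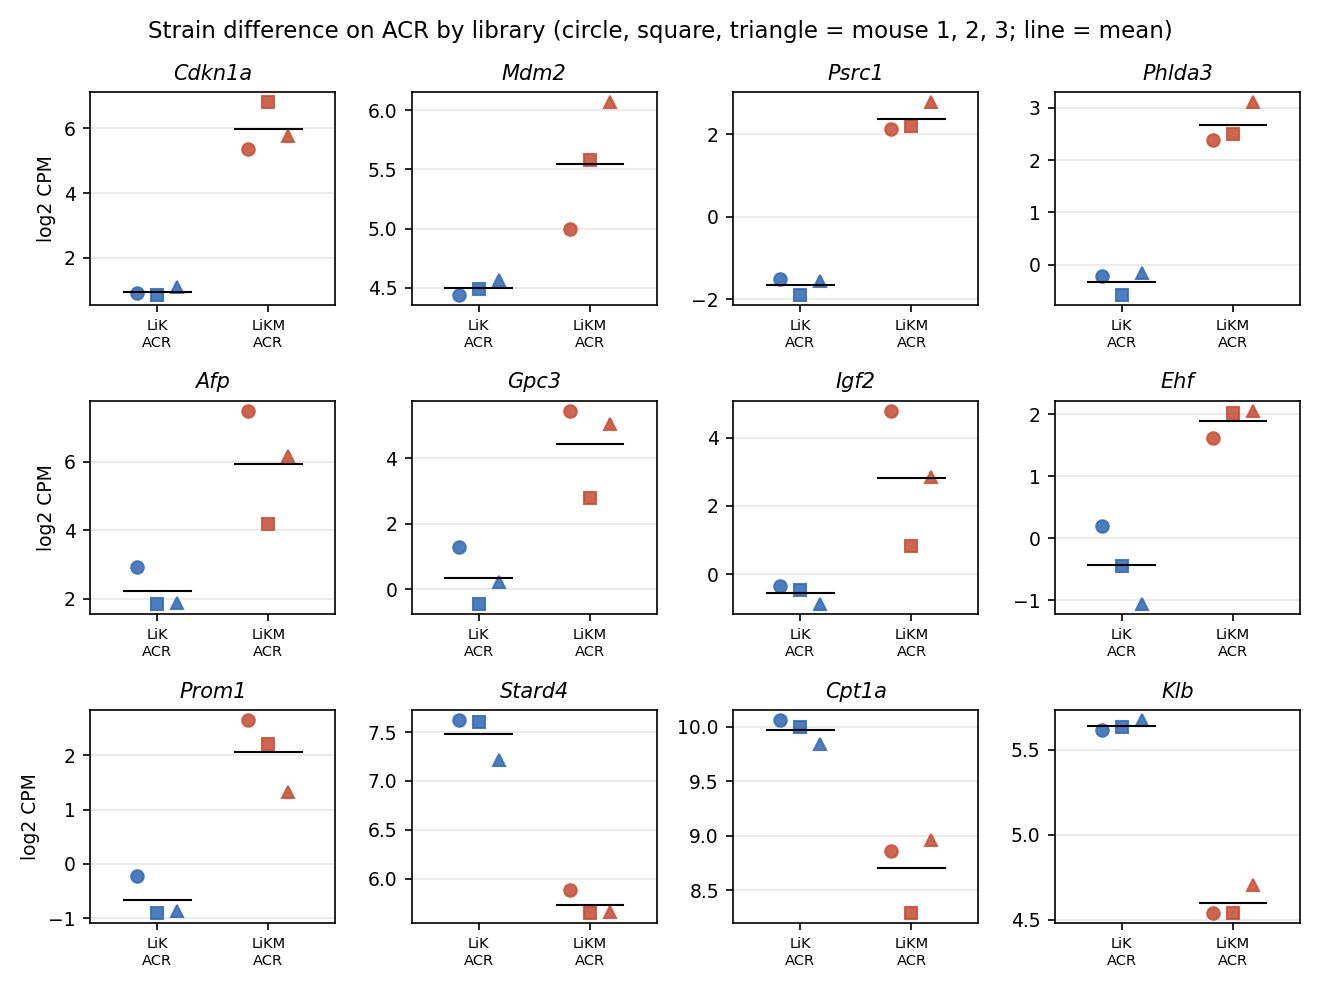
Log2 CPM (vertical axes) of 12 genes in the 3 LiK and 3 LiKM mice on ACR (horizontal axes; circle, square and triangle are mice 1, 2 and 3, lines are means). The groups do not overlap in any of them, and Afp, Gpc3 and Igf2 spread most widely within LiKM, with mouse 1 highest and mouse 2 lowest.

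Bile duct and progenitor genes were higher in LiKM on ACR. Of 30 such markers 19 rose and 1 (Onecut2) fell, with a median of 1.93. Ehf, an epithelial transcription factor, was at 1.01, 0.599 and 0.343 CPM in LiK and 2.92, 3.93 and 4.03 in LiKM (log2 2.47, SE 0.30, adjusted p 0.00253). Prom1, a surface marker of progenitor cells, was at 0.721, 0.4 and 0.412 CPM in LiK and 6.16, 4.47 and 2.38 in LiKM (log2 3.07, SE 0.43, adjusted p 0.0033). Sox9, the transcription factor of bile duct cells, whose counts are uncertain because most are not whole, was at 5.05, 3.33 and 3.84 CPM in LiK and 8.33, 17.5 and 17.4 in LiKM (log2 1.82, SE 0.30, adjusted p 0.00732). The bile duct keratin Krt19 was at 1.15, 0.266 and 0.686 in LiK and 2.67, 2.51 and 4.15 in LiKM and Epcam at 2.88, 0.999 and 0.549 in LiK and 5.35, 5.69 and 9.45 in LiKM. Summed over the 32 listed genes the level was 649 to 979 CPM in LiK and 986 to 1305 in LiKM. In bulk tissue, more cells of a type and more RNA per cell cannot be told apart. With 1 ACR library left out the 19 became 8 to 17 (lowest without LiK ACR 2), and with the clock components 0, though the median over the 30 was then still 1.64.

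On the normal diet 25 of the 30 rose. Ehf differed by 4.52 there and Prom1 by 3.90 on the log2 scale, and the difference between diets did not pass for either (adjusted p 0.139 and 0.649). Of 18 targets of YAP, the effector of the Hippo pathway, 3 rose and 0 fell, where 5.55% of all genes tested rose. Ankrd1 was at 0.216, 0.266 and 0.137 CPM in LiK and 2.05, 1.49 and 3.78 in LiKM (log2 3.51, SE 0.56, adjusted p 0.00606). Ctgf, the YAP target and matrix protein, was at 16.4, 11.5 and 7.96 CPM in LiK and 19.96, 35.6 and 9.15 in LiKM and did not pass (log2 0.85, adjusted p 0.294), and the groups overlapped. Of 18 Notch pathway genes 2 rose, the ligand Jag1 (log2 1.02, adjusted p 0.0163) and the receptor Notch1 (log2 0.93, adjusted p 0.0184). The median over these 18 was 0.26, or 0.0016 with the clock components, where Notch1 changed sign. Of 13 cilium genes 3 rose, including Foxj1, the master factor of motile cilia, at 0.577, 0.2 and 0 CPM in LiK and 2.43, 2.24 and 3.05 in LiKM (log2 3.30, adjusted p 0.00732). With 1 ACR library left out the higher genes became 1 to 3 for YAP, 1 to 2 for Notch and 1 to 3 for the cilium. None of these passed with the clock components, where the median went from 0.53 to 0.33 for YAP and from 0.39 to 0.38 for the cilium.

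Part of the genes of immune cells and matrix rose as well. Of 21 markers of recruited macrophages and monocytes 12 rose and 0 fell, with a median of 1.23. Cd14, the lipopolysaccharide co-receptor, was at 2.96, 2.4 and 6.11 CPM in LiK and 11.9, 7.59 and 11.3 in LiKM (log2 1.42, adjusted p 0.0187). Cx3cr1, the fractalkine receptor, whose counts are uncertain in the same way, was at 1.3, 1.27 and 0.96 CPM in LiK and 4.66, 5.08 and 10.9 in LiKM (log2 2.54, adjusted p 0.0206). Of 17 Kupffer cell markers 3 rose, C1qa, C1qb and C1qc, the subunits of a complement component, where 5.55% of all genes tested rose. With 1 ACR library left out the 3 became 0 to 2 (0 without LiKM ACR 1). The median over the 17 was 0.52 and turned to -0.25 with the clock components, where none passed. Among the Kupffer markers used to check the tissue, Clec4f was at 56.3, 80.4 and 92.1 CPM in LiK and 96.3, 119 and 111 in LiKM. Vsig4 was at 21.2, 24.6 and 30.9 in LiK and 36.6, 49.4 and 35.6 in LiKM. Timd4 overlapped, at 5.41, 9.19 and 13.5 in LiK and 9.33, 12.9 and 9.03 in LiKM. With 1 ACR library left out the 12 higher macrophage genes became 0 to 6 (0 without LiK ACR 2). None of the 21 passed with the clock components, where the median over the 21 was 1.59.

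Among lymphoid and neutrophil markers the T and NK cell list had 5 of 19 genes higher and 0 lower. Cd8a, the co-receptor of cytotoxic T cells, was at 0.433, 0.333 and 0.343 CPM in LiK and 3.3, 2.1 and 4.45 in LiKM (log2 3.13, adjusted p 0.0105). Ccl5, a chemokine of T cells, was at 0.721, 2.93 and 2.54 CPM in LiK and 8.02, 7.66 and 16.2 in LiKM (log2 2.35, adjusted p 0.023). The summed level of the 23 T and NK genes in the table was 12.3 to 24.2 CPM in LiK and 33.8 to 62.8 in LiKM. Of 8 neutrophil genes 3 rose, S100a8, S100a9 and Csf3r (the counts of Csf3r are uncertain too). Of 11 B and plasma cell genes 1 rose (Jchain), where 5.55% of all genes tested rose. Of 32 interferon response genes 7 rose, led by Oas2, a sensor of double-stranded RNA (log2 0.86, adjusted p 0.0122), and of 19 genes of antigen presentation 4, led by Ciita, the activator of class II genes (log2 1.55, adjusted p 0.0173). No endothelial (25), red cell precursor (7) or acute phase (28) gene passed. Without LiK ACR 2 none of the T and NK or interferon genes passed.

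Of 40 extracellular matrix genes 9 rose and 0 fell, with a median of 1.07, or 0.60 with the clock components. The summed level of the 40 was not higher, at 5003 to 5839 CPM in LiK and 4965 to 5258 in LiKM (medians 5459 and 5127). Thbs1, a matrix protein that activates TGF-beta, was at 2.38, 1.47 and 1.3 CPM in LiK and 11.6, 5.97 and 5.31 in LiKM (log2 2.15, adjusted p 0.0288). Col1a1, the main fibrillar collagen, was at 17, 4.93 and 4.66 CPM in LiK and 72.7, 24.9 and 50.4 in LiKM without passing (log2 2.48, adjusted p 0.0904). Of 20 stellate cell and myofibroblast genes 2 rose (Fbln2 and Vim), while the quiescent stellate markers Lrat and Reln had means of 10.7 and 78.7 CPM in LiK and 12.7 and 77.9 in LiKM. A further stellate marker, Des, was at 3.53, 4.73 and 4.12 CPM in LiK and 5.85, 5.9 and 8.17 in LiKM, without overlap. With 1 ACR library left out the 9 matrix genes became 1 to 4, lowest without LiK ACR 2.

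Calls among genes of cholesterol synthesis, fatty acid oxidation and bile acids were mostly lower in LiKM on ACR. Of 24 genes of cholesterol synthesis and uptake 9 fell and 0 rose, and all 24 had a log2 fold change below 0, with a median of -0.56, where 6605 of the 13880 genes tested were below 0. Stard4, which carries cholesterol between membranes, was at 198, 195 and 148 CPM in LiK and 58.7, 49.96 and 50.3 in LiKM (log2 -1.77, SE 0.16, adjusted p 0.00111). Hsd17b7, an enzyme of the late pathway, was at 103, 85.9 and 96.5 CPM in LiK and 43.1, 37.4 and 48 in LiKM (log2 -1.15, SE 0.14, adjusted p 0.00256). Npc1, which exports cholesterol from lysosomes, has uncertain counts and was chosen after its values were seen, was at 241, 208 and 225 CPM in LiK and 105, 98.4 and 103 in LiKM (log2 -1.14, adjusted p 0.00208). On the normal diet 3 of the 24 fell, and with 1 ACR library left out the 9 became 3 to 7 (lowest without LiKM ACR 2). Scaling by total counts alone left 4 calls, with the median at -0.46, and the clock components left 0, with the median at -0.23.

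Of 35 PPAR alpha targets, the genes of fatty acid oxidation, 7 fell and 1 (Pdk4, with uncertain counts) rose, with a median of -0.47 and 32 below 0. Ppara itself, the receptor for fatty acids, was at 548, 453 and 480.1 CPM in LiK and 277, 236 and 236 in LiKM (log2 -0.99, SE 0.14, adjusted p 0.0034). Cpt1a, the gate of fatty acids into mitochondria, was at 1071, 1024 and 916 CPM in LiK and 464, 313 and 498 in LiKM (log2 -1.24, SE 0.19, adjusted p 0.00515). Of 27 genes of fatty acid and triglyceride synthesis 2 fell and 1 rose, where 4.24% of all genes tested fell and 5.55% rose. The median over the 27 was 0.12 and turned to -0.65 with the clock components. Fads2, a desaturase of polyunsaturated fatty acids, was at 1899, 1968 and 1658 CPM in LiK and 893, 627 and 617 in LiKM (log2 -1.37, SE 0.19, adjusted p 0.00322), and Fads1, which acts in the same pathway, fell by 1.15 (adjusted p 0.00481). Agpat2, an enzyme of triglyceride synthesis, was at 111, 108 and 92.7 CPM in LiK and 186, 228 and 167 in LiKM (log2 0.90, adjusted p 0.00574). With 1 ACR library left out the 7 PPAR alpha targets became 4 to 7 (lowest without LiKM ACR 3), and with DESeq2 they became 16.

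Of 28 genes of bile acid synthesis and transport 7 fell and 1 (Abcc4) rose, with a median of -0.29. Klb, the co-receptor through which Fgf15 restrains bile acid synthesis, was at 48.9, 49.5 and 51 CPM in LiK and 23.1, 23.2 and 26 in LiKM (log2 -1.05, SE 0.13, adjusted p 0.00253), with almost no spread within either strain. The exporter Abcc2 (log2 -0.82, adjusted p 0.00893) and the importer Slc10a1 (log2 -0.87, adjusted p 0.024) fell with it. Without LiK ACR 2 the 7 became 2. Cyp7a1, the rate-limiting enzyme of synthesis, was at 54.8, 43.1 and 79.99 CPM in LiK and 77.2, 27.9 and 8.42 in LiKM, with LiKM ACR 3 far below the rest (log2 -0.65, adjusted p 0.666). Of 28 hepatocyte identity genes 1 fell, a share near the 4.24% of all genes tested that fell. It was the transcription factor Cebpa, from 357, 386 and 335 CPM in LiK to 192, 117 and 210.5 in LiKM (log2 -1.05, adjusted p 0.0186). That call was lost with scaling by total counts alone. No respiratory chain gene of 28 passed on ACR, where 24 were below 0 with a median of -0.13. There were 21 that fell on the normal diet, and none of the 28 passed the test of the difference between the diets.

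**Figure D5:**
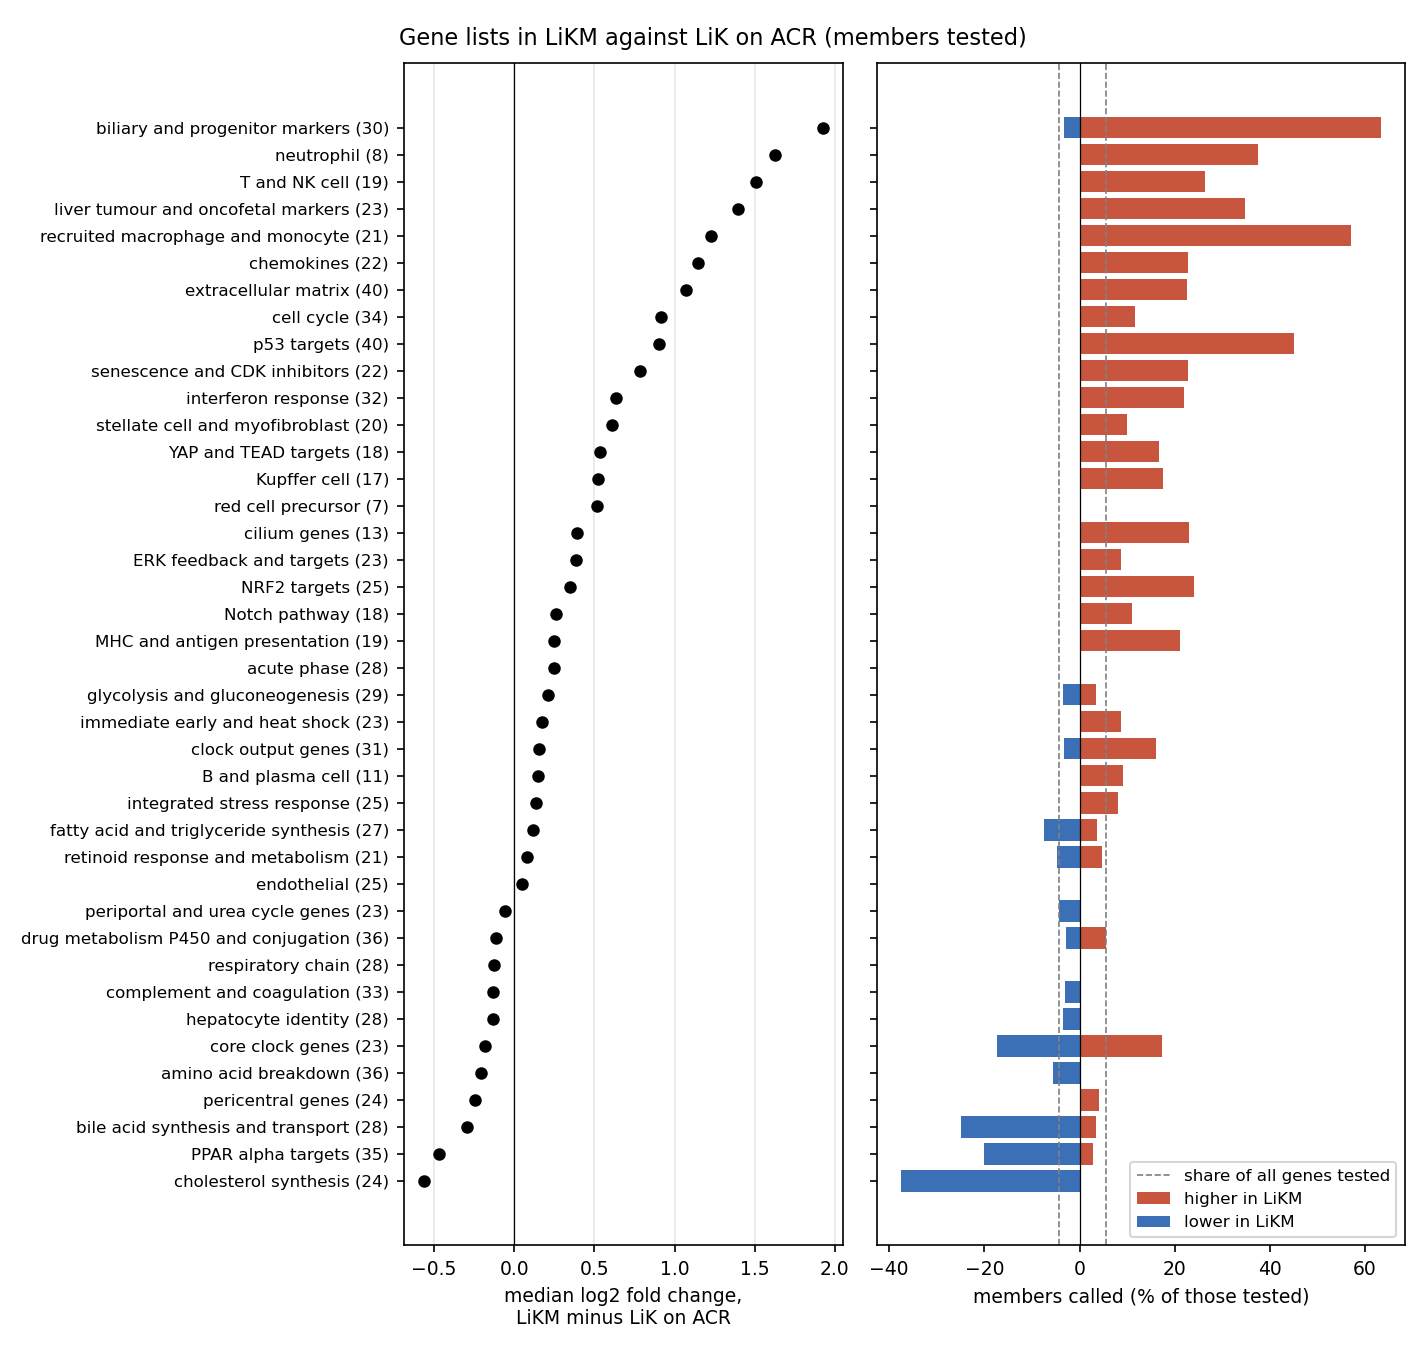
Gene lists in LiKM against LiK on ACR. Left, the median log2 fold change of the members tested (horizontal axis); right, the percentage of members past the threshold, higher to the right in red and lower to the left in blue, with dashed lines at the 5.55% and 4.24% of all genes tested. Lists with at least 7 members tested run along the vertical axis with the number tested in brackets; biliary markers stand at the top (median 1.93) and cholesterol synthesis at the bottom (-0.56).

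Of 21 genes of the retinoid response 1 rose and 1 fell between the strains under ACR, shares near those over all genes tested, with a median of 0.08. Rxra, the partner of the retinoic acid and PPAR receptors, was at 531, 574 and 535 CPM in LiK and 367, 335 and 307 in LiKM (log2 -0.70, SE 0.12, adjusted p 0.00744), with no overlap. Cyp26a1, the retinoic acid hydroxylase that retinoids induce, was at 0.216, 0.466 and 0.274 CPM in LiK and 0.933, 0.746 and 0.427 in LiKM and did not pass (log2 1.10, adjusted p 0.127). Rarb, another retinoid-induced gene, overlapped between the groups at 4.4, 4.26 and 6.24 and 4.42, 3.53 and 4.7 CPM (LiK and then LiKM; log2 -0.24, adjusted p 0.514).

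Among genes of stress responses and signalling, the 25 targets of NRF2, the regulator of antioxidant genes, had 6 that rose and 0 that fell, where 5.55% of all genes tested rose. Their median was 0.35, or 0.12 with the clock components. Cbr3, a carbonyl reductase, was at 0.0721, 0.2 and 0.206 CPM in LiK and 2.43, 0.881 and 1.77 in LiKM (log2 3.34, adjusted p 0.0103), and the epoxide hydrolase Ephx1 at 68.9, 70.3 and 113 in LiK and 210.2, 186 and 188 in LiKM (log2 1.21, adjusted p 0.0291). Of 23 ERK feedback and target genes 2 rose, Spry1 (log2 1.29, adjusted p 0.00606) and Ier3 (log2 1.73, adjusted p 0.0331). Of 31 clock output genes 5 rose and 1 fell. Slc45a3, a sugar transporter, was at 15.6, 13.2 and 14.7 CPM in LiK and 37.8, 79.3 and 43.7 in LiKM (log2 1.89, adjusted p 0.00485), and Gys2, the glycogen synthase of liver, at 617, 627 and 624 in LiK and 349, 253 and 146 in LiKM (log2 -1.32, adjusted p 0.0153).

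The remaining genes of the largest falls follow. Mcm10, a replication factor that is not in the cell cycle list, was at 74.4, 131 and 51.5 CPM in LiK and 24.2, 12.7 and 9.21 in LiKM (log2 -2.48, adjusted p 0.0102). Azin2, an inhibitor of antizyme, was at 6.49, 5.73 and 4.94 CPM in LiK and 0.684, 0.881 and 1.52 in LiKM (log2 -2.46, adjusted p 0.00904). Gpcpd1, a glycerophosphocholine phosphodiesterase, was at 253, 158 and 112 CPM in LiK and 50.5, 21 and 45.6 in LiKM (log2 -2.16, adjusted p 0.0105). The others were Clec2h (-2.40), Pnldc1 (-2.39), Smad9 (-2.12, uncertain because its counts are mostly not whole) and Fitm1 (-2.10), all log2. The smallest p of all genes was that of Narf, chosen after its values were seen, at 83.5, 88.1 and 67.4 CPM in LiK and 22.1, 25.2 and 23.5 in LiKM (log2 -1.76, SE 0.16, adjusted p 0.00111). Slc7a2, the carrier of arginine and lysine, was at 845, 867 and 897 CPM in LiK and 248, 344 and 246 in LiKM (log2 -1.64, adjusted p 0.00253). Ddr1, a collagen receptor of epithelia, was at 3.24, 2.13 and 1.92 CPM in LiK and 10.4, 12.3 and 15 in LiKM (log2 2.37, SE 0.26, adjusted p 0.00208). Both were chosen in the same way, and the counts of Slc7a2 are uncertain.

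The strain effect on ACR was set beside that on the normal diet, which was measured in other mice. On the normal diet 3031 genes passed (21.8% of those tested, 13.2% higher and 8.61% lower). Of the 1359 genes called on ACR, 819 were called in the same direction on the normal diet, which is 60.3% of the calls on ACR and 27.0% of those on the normal diet. In the higher genes the shared part was 527 of 771 and in the lower ones 292 of 588. Of the rest, 439 had the same sign without passing on the normal diet, 96 the opposite sign without passing, and 5 passed in the opposite direction. Only Mreg passed the test of the difference between the diets with edgeR (1 gene, 0.00720% of those tested), where 1593 genes had an unadjusted p under 0.05 and DESeq2 called 157. Mreg, which encodes melanoregulin, a vesicle protein (chr1:72159442-72212307), was at 11.2, 11.3 and 9.88 CPM in LiK and 24.6, 39.1 and 35.2 in LiKM on ACR (log2 1.61, SE 0.20, adjusted p 0.00259). The order was the reverse on the normal diet, with 29.7, 32.99 and 28.98 CPM in LiK and 16.6, 20.7 and 11.9 in LiKM (log2 -0.90, adjusted p 0.00949), and in neither diet did the groups overlap. The difference of the 2 strain effects was 2.51 on the log2 scale (SE 0.29, adjusted p 0.0201).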

How the data were processed

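RNA sequencing libraries came from a stranded poly(A) kit, per the labels' protocols. The deposited table holds expected counts for 24421 gene symbols, which need not be whole (18.9% of the values above 0 are not, tolerance 1e-09), so genes with mostly fractional values are called uncertain (among those with values in the text, Alb, Meg3, Smad9, Sox9, Cx3cr1, Csf3r, Pdk4, Npc1 and Slc7a2). Per the submitters' processing notes, featureCounts 2.0.0 and mm10 were used. No source used here gives the aligner, the annotation or the strand setting.

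Libraries of the series held 10124813 to 18647156 counts. Expected counts were rounded, filtered with filterByExpr by group (13880 genes kept) and scaled by TMM factors. edgeR 4.0.16 (glmQLFit with robust estimation, glmQLFTest, R 4.3.3) was fitted to all 12 libraries with 1 coefficient per group, with Benjamini-Hochberg adjustment over the genes tested and a threshold of 0.05. The fit was tested on simulated data. "Rose" and "fell" refer to this threshold. For edgeR, SE is the absolute log2 fold change divided by the square root of the F statistic of the test. It is derived from the test and is not a fitted standard error. CPM values use the TMM factors, and log2 CPM has a prior count of 2. Alternatives were size factors and the Wald test of DESeq2 1.42.0, scaling by total counts, no filter, the ACR libraries alone, a replicate block, clock components or identifier prefix as covariates, and leaving out libraries.

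The groups, gene lists and rules were chosen with earlier results of these data known, so list counts are descriptions and no list was tested. The text names Mdm2, Trp53, Cdkn1a and Ctgf, the core clock genes, the 10 largest rises and 10 largest falls (past the threshold, at least 5 CPM in the higher group, no overlap, no predicted genes), up to 3 members of smallest p per list, and genes past the threshold for the difference between diets. Some genes that the rule admits are not reported here. Other genes were chosen after their values were seen. Positions are from GENCODE M21 on mm10. Cell type markers served to check the tissue.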

Additional observations from a re-analysis of the deposited data

Results flagged for a closer look

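Mreg was the 1 gene whose strain effect differed between the diets by a direct test of that difference, with a log2 difference of 2.51 (edgeR's quasi-likelihood test, adjusted p 0.0201). LiKM was higher than LiK on ACR by 1.61 on the log2 scale and lower on the normal diet by a log2 change of -0.90, and both changes passed. The call was lost with the clock components as covariates (difference 1.52, adjusted p 0.966), with the identifier prefix as covariate (adjusted p 0.0985), without LiKM ACR 2 (adjusted p 0.0702) and without any 1 LiK library on either diet (adjusted p 0.0516 to 0.104). Groups of 3 were too small to look for outlying samples.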

How the results depend on the processing

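On ACR, the 1359 calls became 2072 with DESeq2, 137 with a replicate block on the 6 ACR libraries, 61 without LiKM ACR 2 and 3 together, and 5 with the clock components as covariates; with 1 library left out they ranged from 312 to 1695. The replicate block on all 12 libraries gave 1312. Same-numbered LiK and LiKM mice on ACR did not deviate together (correlations -0.10, -0.01 and -0.10, other pairs -0.08 to 0.15). These values show no pairing by number, but deviations from means of 3 mice cannot exclude it. Same-numbered LiKM mice of the 2 diets did (0.37, 0.22 and 0.49, other pairs -0.38 to 0.07), which bears on the difference between diets. No label pairs mice by number. Deviations from means of 3 cannot show pairing either, because 1 mouse far from the rest of each group can give such values. The third LiKM mouse of both diets lay apart on the second clock component (-4.51 and -5.24). Size factors (1364), no filter (1191), total counts (1126), the ACR libraries alone (1090) and the prefix covariate (960) stayed within 1.5 times in total. The prefix covariate left 457 higher and 503 lower, against 771 and 588. On the normal diet, 3031 calls became 4831 with scaling by total counts and 1658 to 3384 with 1 library left out.

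The 1 call for the difference between diets became 157 with DESeq2, 16 with total counts, 2 with no filter, 2 with the replicate block, and 0 with the clock components, the prefix covariate or LiKM ACR 2 and 3 left out together; with 1 library left out it was 0 to 20. The cause was not tested.

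With the clock components as covariates 7 of 116 named calls changed sign: Mdm2 to -0.0145, Dbp to 0.24, Hmox1 to -0.17, Cebpa to 0.0235, Notch1 to -0.095, Npas2 to -2.63 and Nr1d2 to 0.18. Of the others 108 lost the threshold and 1 (Igf2) kept it. Npas2 was at -2.22 without LiKM ACR 2 and 3 together. With 1 ACR library left out 53 to 95 of the 116 stayed past the threshold, and none changed sign.

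With 3 mice a group, 1 library decides whether many genes pass the threshold. Clock phase and strain cannot be told apart on ACR. Genes of few counts, including most immune and bile duct markers, have wide errors.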
